A study of Mus musculus with 15 samples.

Results

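RNA-seq of whole dorsal dentate gyrus (dDG) was compared between mice with and without a functional serotonin 4 receptor (5-HT4R, encoded by *Htr4*) in excitatory neurons of the hippocampus. The comparison covers the 5 dDG input libraries, 3 WT and 2 cKO, of the 15 libraries of the series, and the 15383 genes whose counts were high enough to test. WT mice were Drd3-Cre KI198::Rosa26-fsTRAP and cKO mice were Drd3-Cre KI198::Rosa26-fsTRAP::Htr4-Floxed, so both genotypes carried the same Cre driver and the same Cre-dependent EGFP fused to ribosomal protein L10a. The Cre driver is a BAC transgene that is active in mature granule cells, hilar mossy cells and part of the CA pyramidal cells, and not in immature neurons, interneurons or non-neuronal cells. Mice were adult (8 to 12 weeks), and the records give 2 mice pooled per input. An input is the RNA of the homogenate cleared by centrifugation, before the tagged ribosomes are captured from it. It therefore holds RNA of the cells without Cre as well. Cortex is given as the input source in the sample records, whereas the titles and the brain region tag name dDG.

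The dentate gyrus receives the main cortical input of the hippocampus, and its principal neurons are the granule cells. 5-HT4R is a Gs-coupled receptor that raises cAMP when serotonin binds, and it is abundant in these cells. Around the granule cells, whole tissue also holds astrocytes, which supply cholesterol and lipids to neurons on apolipoprotein E particles, and microglia, oligodendrocytes, interneurons and vessels. Ribosomal proteins and respiratory chain subunits are encoded by short, abundant transcripts made in all of these cells.

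Total counts on genes were 19039295 to 30451430 per library, the 10 most abundant genes took 11.6 to 15.8% of them, and scaling factors were 0.984 to 1.03. Granule cell markers were abundant in all 5 libraries and their summed level was 5675, 5760 and 6134 CPM (counts scaled to a common library size) in WT and 5878 and 5583 CPM in cKO. *Prox1*, the transcription factor that sets granule cell identity, had a normalised read count (scaled to the mean library) of 22829 ± 1274 in the WT pools and 24260 ± 891 in the cKO pools (mean ± SD, n = 3 and 2). *Lct*, which marks the dorsal dentate gyrus, stood at 3076 to 4309 in the 5 libraries, and *Trhr*, which marks the ventral dentate gyrus, at 2.83 to 17.3, against WT means of 987 for *Lct* and 709 for *Trhr* in the ventral dentate gyrus (vDG) inputs, which were scaled among themselves. The summed level of 8 neocortex markers was 235 to 262 CPM in WT and 230 to 250 CPM in cKO. The methods state that each pool held a male and a female, and the summed level of the Y-linked genes overlapped between genotypes, at 53.9 to 76.7 CPM in WT and 46.8 to 55.0 CPM in cKO. All 4 tested Y-linked genes had a negative log2 difference (median -0.46, and -0.61 to -0.33 with 1 pool left out), and 2 were lower at an unadjusted p under 0.05 (7% of all genes). In the vDG inputs, with all 10 inputs scaled together, the Y-linked genes summed to 52.9 to 83.1 CPM in WT and 62.9 CPM in cKO replicate 2, and they had 0 counts in cKO replicate 1, which goes against a pool of both sexes. Results that use the ventral inputs are therefore given with and without ventral cKO replicate 1. No batch is named in the labels, and p-values measure the spread between these pools.

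*Htr4* was measured first, because it is the targeted gene. Its normalised read count was 816, 697 and 593 in the WT pools and 1127 and 1229 in the cKO pools. Both cKO pools were above all WT pools. The difference was 0.75 ± 0.14 (log2, SE) and did not pass the threshold in edgeR's quasi-likelihood test (FDR = 0.0978), while DESeq2 gave FDR = 0.00105. A gene count adds up reads over every exon, so it does not check whether the floxed part was removed. Of the other serotonin receptor genes, 9 were tested, with log2 differences from -1.13 to 0.52 and no unadjusted p below 0.0957. The lowest was *Htr2c*, a receptor that the choroid plexus expresses strongly, with 10.8, 20.3 and 47.7 in WT and 14.1 and 10.0 in cKO, so the groups overlapped. Its difference of -1.13 was -0.33 without WT replicate 3 and -1.51 without WT replicate 1.

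Across the whole dorsal tissue, 5 genes passed FDR 0.05, 1 of them higher in cKO (0.0065% of genes tested) and 4 lower (0.026%). The gene that rose was *Pdzd2*, which encodes a scaffold protein with PDZ domains. The genes that fell were *Apoe* and *Mfge8*, secreted products that astrocytes make in quantity, *Swi5*, a partner of *Sfr1* in recombinational DNA repair, and *AK144265*, a transcript named only by its sequence record. Genes named for a low p over all genes had to lie apart between genotypes, so the lack of overlap given for them below was set by that rule. All cKO pools were above all WT pools in 14% of all genes and below in 15.5%. The MA plot places the 5 genes among all genes tested.

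**Figure D1:**
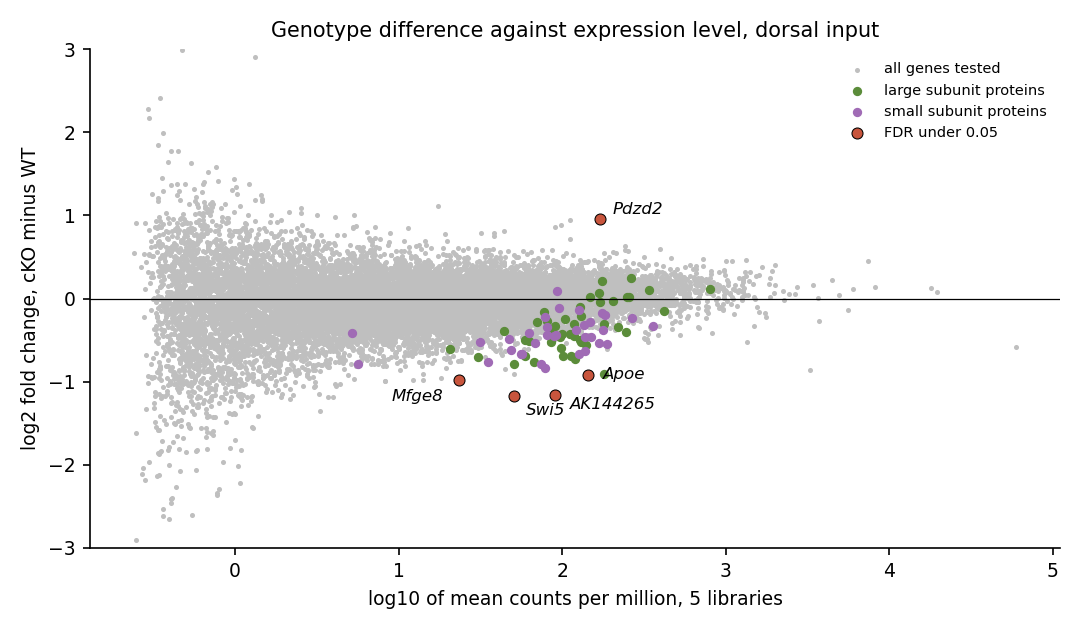
Difference between genotypes (log2 fold change, cKO minus WT) against the log10 of the mean CPM over the 5 dorsal input libraries, 1 point per gene tested. The 5 genes past FDR 0.05 are labelled, the proteins of the large and small cytosolic ribosomal subunits are coloured and mostly lie below 0 (medians -0.41 and -0.45), and 4 genes with a log2 fold change beyond 3 in size are outside the plotted range.

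*Pdzd2* (ENSMUSG00000022197, minus strand, chr15:12359711-12739924, mm10) had 3617, 2337 and 2709 normalised reads in WT and 5525 and 5734 in cKO. The cKO pools were both above the highest WT pool. Its level rose from 2888 ± 658 (SD, n = 3) to 5629 ± 148 (SD, n = 2), a 1.95-fold difference (log2 0.96 ± 0.15, SE, edgeR FDR = 0.0374). *Pdzd2* is also a marker of granule cells, where it was listed with its result known, and the summed level of that list overlapped between genotypes with a median log2 difference of 0.09 beside -0.02 over all genes tested.

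*Apoe* (ENSMUSG00000002985, minus strand, chr7:19696109-19699188) had 4375, 4616 and 3477 normalised reads in WT and 2033 and 2374 in cKO. The lowest WT pool was still above the higher cKO pool. The level fell from 4156 ± 600 (SD, n = 3) to 2203 ± 242 (SD, n = 2), which is -0.92 ± 0.13 on the log2 scale (SE, edgeR FDR = 0.0307). *Mfge8* (ENSMUSG00000030605, minus strand, chr7:79133768-79149060), a secreted glycoprotein that bridges phosphatidylserine on cells to the phagocytes that clear them, had 704, 671 and 660 normalised reads in WT and 323 and 364 in cKO. Replicates of *Mfge8* lay close together, at 678 ± 23.1 (SD, n = 3) and 344 ± 28.7 (SD, n = 2), and the log2 difference was -0.98 ± 0.14 (SE, edgeR FDR = 0.0257). Fewer astrocytes and less of this RNA per astrocyte cannot be told apart in whole tissue, and the same holds for each cell type below.

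*Swi5* (ENSMUSG00000044627, minus strand, chr2:32278816-32288075) had 1470, 1787 and 1296 normalised reads in WT and 756 and 588 in cKO. The groups did not overlap, and the log2 difference was -1.17 ± 0.16 (SE, edgeR FDR = 0.0243). *Swi5* had been put in its functional group with its result known, and of the 29 tested genes of DNA repair and recombination, 3 were higher and 1, *Swi5* itself, lower at an unadjusted p under 0.05 (5.23% and 7% of all genes tested), with a list median of 0.13. *Brca2*, which loads the recombinase on DNA, was among the higher ones at 297, 244 and 226 in WT and 351 and 374 in cKO and did not pass (log2 0.50, edgeR FDR = 0.23). *AK144265* had 3198, 2151 and 2814 normalised reads in WT and 1269 and 1172 in cKO, all cKO values below all WT values (log2 -1.16 ± 0.15, SE, edgeR FDR = 0.0243). It had no match in the annotation used, so no position is given.

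**Figure D2:**
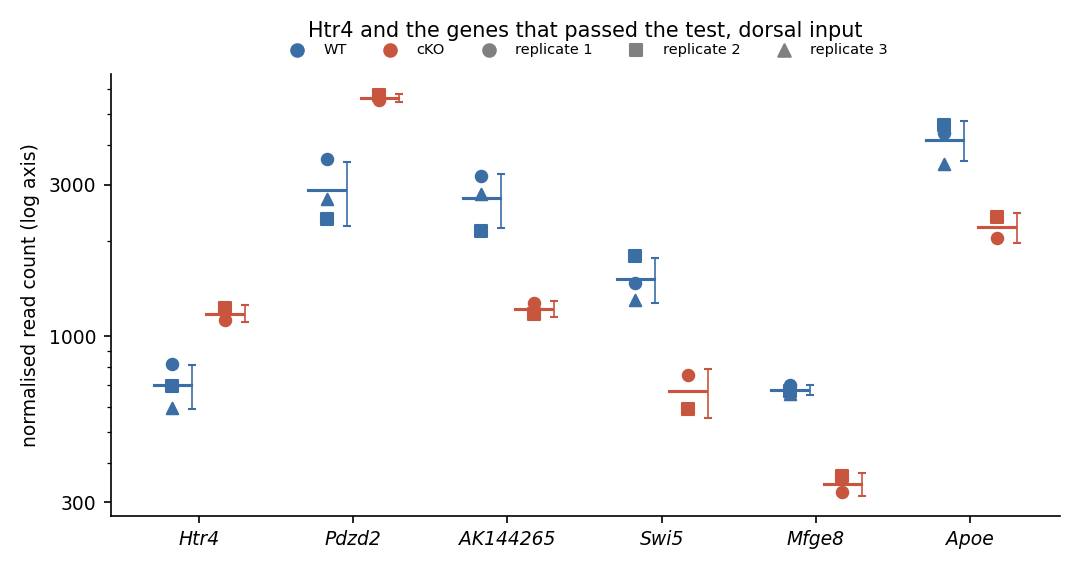
Normalised read counts (log axis) of *Htr4* and the 5 genes past FDR 0.05 in the dorsal inputs, with 1 point per pool, the mean as a line and the SD as a bar (n = 3 WT and 2 cKO). In each of the 6 genes the WT and cKO pools do not overlap, with *Htr4* and *Pdzd2* higher and the other 4 lower in cKO.

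The number of calls changed with the pools in the fit. Without WT replicate 1, 11 genes were higher and 18 lower, without WT replicate 3, 67 and 63, and without WT replicate 2, 0 and 1 (*AK144265*). Without either cKO pool no gene passed, but such a fit sets 1 cKO pool against 3 WT pools and takes the spread from the WT pools alone, and the edgeR FDR of all 5 genes was then 0.467 without cKO replicate 1 and 0.849 without cKO replicate 2. All 5 genes kept their direction under each of 18 other settings, with log2 differences of 0.84 to 1.16 for *Pdzd2*, -1.29 to -1.03 for *AK144265*, -1.36 to -1.001 for *Swi5*, -1.07 to -0.88 for *Mfge8* and -1.03 to -0.78 for *Apoe*. With both WT pools high in *Ttr*, a choroid plexus gene, left out, *Pdzd2* differed by 0.65 and *AK144265* by -1.37, and the other 3 stayed within these ranges. DESeq2, run on the same counts, called 83 genes higher (0.782%) and 105 lower (0.99%), and all 5 genes passed there too (FDR at most 1.54e-06).

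Just outside the threshold stood 12 further genes with an edgeR FDR under 0.1, *Htr4* among them, where 0.111% of all genes tested were. None of these passed 0.05. On the higher side, 6 genes are described beside *Htr4*. *Klf7*, a zinc finger transcription factor of neurite growth, had 577, 550 and 598 normalised reads in WT and 906 and 1085 in cKO (log2 0.79, edgeR FDR = 0.0587). The groups of *Klf7* were separated by more than the spread of either. *Hivep2*, a zinc finger transcription factor required for normal brain development, had 4240, 4528 and 5119 in WT and 7478 and 6930 in cKO (log2 0.64, edgeR FDR = 0.0773). *Ppp3cb*, a catalytic subunit of the calcium-dependent phosphatase calcineurin, had 3729, 4042 and 4296 in WT and 5780 and 6098 in cKO (log2 0.56, edgeR FDR = 0.0954). *Dlat*, the acetyltransferase subunit of pyruvate dehydrogenase, and *Hs3st4*, which sulfates heparan sulfate chains, differed by 0.59 and 0.79 on the log2 scale (edgeR FDR = 0.0954 for both). *Plcxd2* differed by 0.81 (edgeR FDR = 0.0978).

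On the lower side, *Rgma*, a membrane-anchored guidance molecule and coreceptor of bone morphogenetic proteins, had 365, 403 and 473 normalised reads in WT and 226 and 192 in cKO (log2 -0.98, edgeR FDR = 0.0839). *Pdia6*, a disulfide isomerase of the endoplasmic reticulum, had 661, 712 and 652 in WT and 415 and 391 in cKO (log2 -0.74, edgeR FDR = 0.0954), and *Gpr37l1*, a receptor of astrocytes, had 1546, 1830 and 1689 in WT and 952 and 1125 in cKO (log2 -0.70, edgeR FDR = 0.0954). None of the 3 overlapped between genotypes, as the rule that named them requires. *Gpr141*, with few counts, and *Lars2*, described below, were the others on this side. Further down the order of p were *Vgf*, the precursor of a group of neuropeptides (log2 -0.996, FDR = 0.105), *Hebp1*, a haem-binding protein (-0.95, FDR = 0.105), *Slco1c1*, the thyroxine transporter of astrocytes and brain vessels (-0.91, FDR = 0.113) and *Btg1*, an antiproliferative transcriptional cofactor (-0.63, FDR = 0.12), all by edgeR and none past 0.05. On the higher side the next were *Smim10l1* (log2 0.58, FDR = 0.12), *Tnfaip8l3* (0.88, FDR = 0.124), *Nsun3*, a methyltransferase of mitochondrial tRNA (0.77, FDR = 0.125), and *Ttn*, titin (1.12, FDR = 0.142).

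A pair of loci that hold ribosomal RNA reads was lower as well. *Lars2*, whose annotated exons hold a ribosomal RNA repeat in the mouse, had 113368, 87879 and 80487 normalised reads in WT and 57220 and 46005 in cKO (log2 -0.86, edgeR FDR = 0.0587). *Rn45s*, the 45S ribosomal RNA precursor, took 7.03, 5.82 and 7.66% of gene counts in the WT libraries and 5.41 and 3.69% in the cKO libraries. All cKO shares were below all WT shares. The log2 difference of *Rn45s* was -0.58 (edgeR FDR = 0.167). It was -0.33 without cKO replicate 2 and -0.88 without cKO replicate 1. With these loci removed, 1 gene was again called higher and 4 lower.

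Proteins of the cytosolic ribosome were lower for most members, none of which passed the test alone. Most are encoded by transcripts that begin with a run of pyrimidines, the terminal oligopyrimidine tract, through which growth signals control their translation. Start site windows of 25 bases, 15 before and 10 after the annotated start, were searched for the letters CTTTC on the sense strand, and 13 of the 58 ribosomal protein genes with a promoter sequence (of 80 tested) held them (22.4%), against 394 of 10822 of all tested genes with one (3.64%). The other 45 did not hold them. On the antisense strand the shares were 3.45% and 2.91%. The windows of 4 of the members described here are shown with these letters in capitals (RefSeq, GRCm38.p6), namely *Rps27* at chr3:90213639-90213663 (minus strand), *Rpl35a* at chr16:33056467-33056491, *Rplp2* at chr7:141447636-141447660 and *Rpl38* at chr11:114668565-114668589 (plus strand). *Rpl35a* has 3 annotated starts, and the 1 whose window holds the letters is shown.
Rps27: atttccgCTTTCgctcCTTTCcggc
Rpl35a: gcggggcttgccttcctCTTTCcgc
Rplp2: tgcgtcagcgtcttcCTTTCgccgc
Rpl38: agcggaagcctcgttCTTTCcccgt
Of the other members described here, *Rps21* (2 starts) and *Rps28* (1 start) did not hold the letters, and *Rps29* and *Rplp1* had no promoter sequence in the table used. A match describes the sequence and says nothing of the factor that may bind it.

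Of 46 tested proteins of the large (60S) subunit, 38 had a negative log2 difference, with a median of -0.41 (a 24.7% lower level) beside -0.02 over all genes. Of 34 tested proteins of the small (40S) subunit, 33 had a negative difference, with a median of -0.45. At an unadjusted p under 0.05, 29 of the 46 and 25 of the 34 were lower and 0 were higher, where 7% of all genes were lower. None passed FDR 0.05 in edgeR, whereas DESeq2 called 9 and 7 of them lower, where it called 0.99% of its tested genes. All cKO pools were below all WT pools in 25 and 16 of them, beside 15.5% of all genes. Ribosomal protein genes have many near-identical processed copies, so the counts of single members are uncertain.

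Among the small subunit proteins, *Rps21* had 2405, 2193 and 1636 normalised reads in WT and 1344 and 1067 in cKO (log2 -0.78, edgeR FDR = 0.124). *Rps29* had 2249, 2807 and 1661 in WT and 1314 and 1197 in cKO (log2 -0.83, edgeR FDR = 0.133). The pattern over libraries was shared by these members, with WT replicate 3 as the lowest WT pool and cKO replicate 2 as the lowest pool of all. *Rps27*, whose window was shown above, had 3632, 4436 and 3163 in WT and 2512 and 2303 in cKO (log2 -0.64, edgeR FDR = 0.142). *Rps28* had 1009, 1152 and 792 in WT and 637 and 517 in cKO (log2 -0.77, edgeR FDR = 0.142).

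Among the large subunit proteins, *Rpl35a* had 1465, 1739 and 1074 normalised reads in WT and 905 and 741 in cKO (log2 -0.79, edgeR FDR = 0.157). *Rplp1* and *Rplp2*, the acidic proteins of the stalk that recruits elongation factors, had log2 differences of -0.91 and -0.73 (edgeR FDR = 0.157 for both). *Rplp1* ranged most among the WT pools, with 4947, 7044 and 3601, and cKO stood at 3013 and 2497. *Rpl38* had 2086, 2149.1 and 1440 in WT and 1294 and 924 in cKO (log2 -0.77, edgeR FDR = 0.157).

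The summed level of the class was 4119, 4864 and 3516 CPM in WT and 3462 and 2895 CPM in cKO for the small subunit, where the groups missed each other narrowly, and 6861, 8339 and 6547 CPM in WT and 6620 and 5871 CPM in cKO for the large subunit, where they overlapped. Leaving out 1 pool moved the counts: without WT replicate 2, 15 large and 13 small subunit proteins were lower at an unadjusted p under 0.05 (medians -0.26 and -0.27, where 5.07% of all genes were lower), and without cKO replicate 2, 9 and 5 were (medians -0.27 and -0.31, where 3.01% were lower). Without cKO replicate 1 the medians were -0.53 and -0.62. The shift also went with transcript length, since genes in the shortest of 5 equal length classes (exonic length 56 to 2532 bp) had a median log2 difference of -0.12 and genes in the longest 0.03. With the trend on length removed, 23 and 20 proteins were lower at an unadjusted p under 0.05 (5.74% of all genes) and the medians were -0.28 and -0.38. RNA quality, which can act on transcripts by length, was not tested.

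The respiratory chain, whose nuclear-encoded subunits are also short transcripts, was shifted the same way. Of 37 tested subunits of complex I, the NADH dehydrogenase, 20 were lower and 1 higher at an unadjusted p under 0.05 (7% and 5.23% of all genes), with a median of -0.35. For complexes II and III 5 of 13 were lower (median -0.23), for complex IV, cytochrome c oxidase, 8 of 14 (median -0.34), and for the ATP synthase 6 of 16 were lower and 1 higher (median -0.19). None passed FDR 0.05 in edgeR, and DESeq2 called 1 subunit of complex I and 1 of complex IV lower (0.99% of its tested genes were lower). In complex I, 2 subunits were lower at this p without cKO replicate 2 (3.01% of all genes in that fit), 8 without WT replicate 2 (5.07%) and 11 once the trend on length was removed (5.74%). Over the 5 ways of leaving out 1 pool the medians ranged from -0.41 to -0.21 for complex I, -0.39 to -0.088 for complexes II and III, -0.45 to -0.24 for complex IV and -0.31 to -0.12 for the ATP synthase.

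*Ndufa6*, an accessory subunit of complex I, had 576, 679 and 480 normalised reads in WT and 373 and 307 in cKO (log2 -0.76, edgeR FDR = 0.157). *Cox5b*, a nuclear-encoded subunit of complex IV, had 2880, 3133 and 2439 in WT and 2079 and 1796 in cKO (log2 -0.54, edgeR FDR = 0.157). Neither gene overlapped between genotypes. *Uqcr11*, a small subunit of complex III, and *Atp5e*, the epsilon subunit of the ATP synthase, differed by -0.67 (edgeR FDR = 0.205) and -0.85 (edgeR FDR = 0.167). The difference of *Uqcr11* was -0.88 without cKO replicate 1 and -0.41 without WT replicate 2. *Atp5b*, the catalytic beta subunit of the ATP synthase, stood on the other side, with 35934, 39076 and 47708 in WT and 50009 and 53329 in cKO (log2 0.34, edgeR FDR = 0.256). The summed level of the ATP synthase list was higher in both cKO pools (3948 and 3930 CPM) than in the WT pools (3327, 3733 and 3875 CPM), although its median was negative.

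Of 76 tested mitochondrial ribosomal proteins, 11 were lower and 1 higher at an unadjusted p under 0.05 (7% and 5.23% of all genes), with a median of -0.12. Without cKO replicate 2, 2 were lower (3.01% of all genes in that fit) and the median was -0.012, while without cKO replicate 1 it was -0.26. *Mrps12*, a protein of the small mitochondrial subunit, had 554, 805 and 648 normalised reads in WT and 455 and 340 in cKO (log2 -0.75, edgeR FDR = 0.157). Counts in other classes of protein synthesis and turnover are read against the same shares. Of 53 translation initiation factors, 6 were higher and 2 lower at this p (median 0.06), among them *Eif2s1*, the alpha subunit of eIF2 whose phosphorylation restrains initiation (log2 0.40, edgeR FDR = 0.18), and *Eif3e* on the lower side (-0.38, edgeR FDR = 0.211). Elongation factors were lower for 2 of 7 at this p, and all 7 had a negative difference (median -0.28), with *Eef1a2*, the neuronal form of elongation factor 1A, at -0.35 (edgeR FDR = 0.22). The difference of *Eef1a2* was -0.48 without cKO replicate 1 and -0.23 without cKO replicate 2. The Ube2 family of ubiquitin-conjugating enzymes was higher for 7 of 34 and lower for 1 (median 0.08, and 0.031 to 0.19 with 1 pool left out), with *Ube2q2* at 0.40 (edgeR FDR = 0.183), and proteasome subunits were lower for 3 and higher for 1 of 37 (median -0.04, and -0.12 to 0.049 with 1 pool left out). Elongation factors had a median of -0.27 to -0.18 with 1 pool left out.

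In RNA processing, 7 of 32 tested snRNP proteins were lower and 1 higher at an unadjusted p under 0.05, where 7% of all genes were lower and 5.23% higher. The median of the snRNP proteins was -0.19, and -0.093 with 2 lower without cKO replicate 2 (3.01% of all genes in that fit), with *Snrpg*, a short Sm protein, at 398, 481 and 305 normalised reads in WT and 240 and 207 in cKO (log2 -0.81, edgeR FDR = 0.157). Host genes of small nucleolar RNAs, many of which carry the same pyrimidine tract as ribosomal proteins, were lower for 3 of 14 (median -0.17, and -0.35 to -0.090 with 1 pool left out), with *Gas5* at -0.48 (edgeR FDR = 0.219). The difference of *Gas5* was -0.64 without cKO replicate 1 and -0.31 without WT replicate 1. Among 11 SR splicing factors 2 were higher and 1 lower, with *Srsf5* at 6161, 4367 and 4432 in WT and 6733 and 6856 in cKO (log2 0.45, edgeR FDR = 0.208). In the targeting of new proteins to the endoplasmic reticulum, 4 of 25 genes were lower and 1 higher, including the translocon channel *Sec61a1* (-0.52, edgeR FDR = 0.167) and the signal peptidase subunit *Spcs1* (-0.58, edgeR FDR = 0.167). Hsp70, Hsp90 and Hsp60 chaperones were balanced, with 2 of 20 on each side and a median of 0.01.

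**Figure D3:**
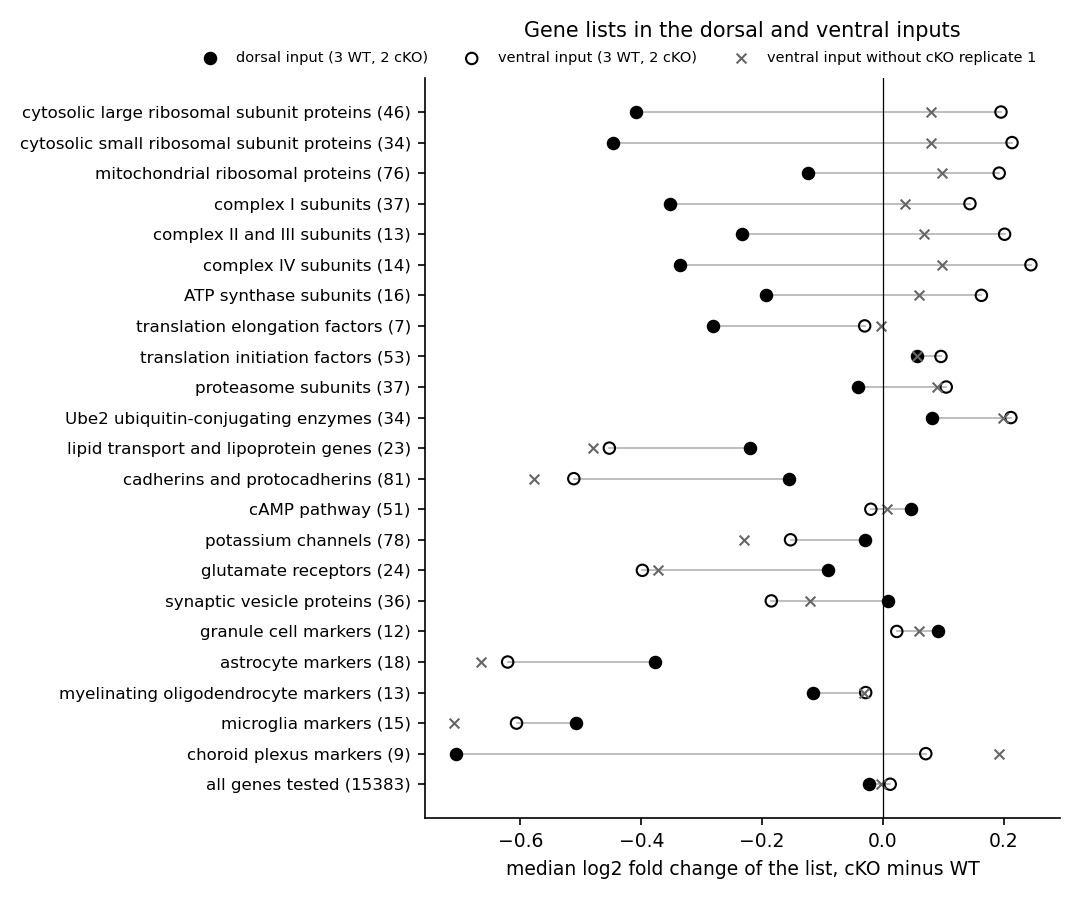
Median log2 fold change (cKO minus WT) of the tested members of each gene list in the dorsal inputs (filled points) and the ventral inputs (open points), with the number tested in the dorsal inputs in brackets. Ribosomal proteins and respiratory chain complexes lie below 0 in the dorsal and above 0 in the ventral inputs, and astrocyte and microglia markers lie below 0 in both. Crosses give the ventral medians without ventral cKO replicate 1, at which the ribosomal and respiratory chain lists lie closer to 0 (0.037 to 0.099).

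The list of lipid transport genes held 2 of the 5 called genes, *Apoe* and *Mfge8*. Of these, only *Apoe* carries lipids by the descriptions given above. Of 23 tested, 2 fell (*Apoe* and *Mfge8*, where 0.026% of all genes fell) and 0 rose. At an unadjusted p under 0.05, 8 were lower (7% of all genes) and 0 higher, and DESeq2 called 4 lower (0.99% of all genes). The list median was -0.22. *Apoe* and *Mfge8* had been put in this list and in the astrocyte list with their results known. *Clu*, clusterin, another apolipoprotein of astrocytes, had 4029, 4209 and 3841 normalised reads in WT and 2653 and 3163 in cKO (log2 -0.47, edgeR FDR = 0.157). *Abcg1*, which exports cholesterol to lipoprotein particles, had 1673, 1431 and 1413 in WT and 1065 and 1118 in cKO (log2 -0.46, edgeR FDR = 0.171). Neither overlapped between genotypes. In cholesterol synthesis 2 of 21 enzymes were lower at this p, with *Msmo1*, which removes methyl groups from sterols, at -0.55 (edgeR FDR = 0.196, and -0.81 without cKO replicate 2 and -0.32 without cKO replicate 1).

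Astrocyte markers were lower beside these genes. Of 18 tested, 9 were lower and 0 higher at an unadjusted p under 0.05 (7% and 5.23% of all genes), 2 fell at FDR 0.05 (0.026%), DESeq2 called 6 lower (0.99%), and the median was -0.38. Those 2, *Apoe* and *Mfge8*, were put in the list with their results known. *Gja1*, the gap junction protein connexin 43, had 1709, 1735 and 1580 normalised reads in WT and 1022 and 1179 in cKO (log2 -0.61, edgeR FDR = 0.12). *Slc1a3*, the glutamate transporter GLAST, had 5356, 4912 and 4938 in WT and 2952 and 4022 in cKO (log2 -0.54, edgeR FDR = 0.157). In both genes cKO replicate 1 was the lowest pool, and *Slc1a3* differed by -0.33 without it and by -0.78 without cKO replicate 2. *Slc1a2*, the main glutamate transporter of astrocytes, had 113899, 84310 and 82167 in WT and 61461 and 93390 in cKO, so the groups overlapped (log2 -0.27, edgeR FDR = 0.542), and *Aldoc*, another abundant marker, differed by -0.17 (edgeR FDR = 0.512). The summed level of the markers was 7014, 5657 and 5434 CPM in WT and 4145 and 5847 CPM in cKO, with cKO replicate 2 inside the WT range. The median of the list was -0.59 without cKO replicate 2 and -0.22 without cKO replicate 1. The part of astrocyte content in the *Apoe* and *Mfge8* differences was not tested.

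Markers of other cells outside the Cre population were lower in part. All 15 microglia markers had a negative difference (median -0.51) and 6 were lower at an unadjusted p under 0.05, but their summed level was 102, 62.1 and 58.5 CPM in WT and 50.2 and 54.0 CPM in cKO, and without WT replicate 1 the count was 0 (7.7% of all genes in that fit) and the median -0.23. *Cx3cr1*, the fractalkine receptor of microglia, had 236, 110 and 153 normalised reads in WT and 98.0 and 99.3 in cKO (log2 -0.75, edgeR FDR = 0.303). Its difference was -0.96 without WT replicate 2 and -0.42 without WT replicate 1. The 10 tested endothelial markers were lower for 2 at this p (median -0.62) and the 10 mural cell markers for 1 (median -0.50), where 7% of all genes were lower. The endothelial median rested on single WT pools, at -0.012 without WT replicate 1 and -1.03 without WT replicate 3, and the mural median was -0.67 to -0.38 with 1 pool left out. Levels of both differed widely between WT pools, with summed endothelial markers at 26.6, 16.7 and 6.28 CPM in WT and 10.6 and 10.8 CPM in cKO. Myelinating oligodendrocyte markers stood close together at 596 to 624 CPM in WT and 596 to 599 CPM in cKO, with 2 of 13 lower at an unadjusted p under 0.05 (median -0.12). Without cKO replicate 2, 0 were lower (median -0.039), and without WT replicate 3, 4 were (median -0.16, where 8.4% of all genes were lower). Of these, *Mbp*, myelin basic protein, differed by -0.12 (edgeR FDR = 0.711).

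Choroid plexus RNA stood out by pool. *Ttr*, transthyretin, which defines the choroid plexus, had 99.4, 1739 and 2863 normalised reads in WT and 99.9 and 38.0 in cKO. WT replicates 2 and 3 were high, and WT replicate 1 was at the level of the cKO pools, so the groups overlapped (log2 -4.48, edgeR FDR = 0.133). Of 9 tested markers 6 were lower at an unadjusted p under 0.05 (7% of all genes), and the summed level was 72.8, 150 and 221 CPM in WT and 58.3 and 51.5 CPM in cKO. The median of -0.71 was -0.39 without WT replicate 3 and -1.05 without cKO replicate 1. *Folr1*, *Kcne2* and *Aqp1* were too low to test. With both WT pools high in *Ttr* left out, 453 genes were higher and 658 lower at FDR 0.05, but this sets 1 WT pool against 2 cKO pools and assumes that the WT pool varies like the cKO pools. The ribosomal protein medians were then -0.32 and -0.37 and the astrocyte median -0.43.

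**Figure D4:**
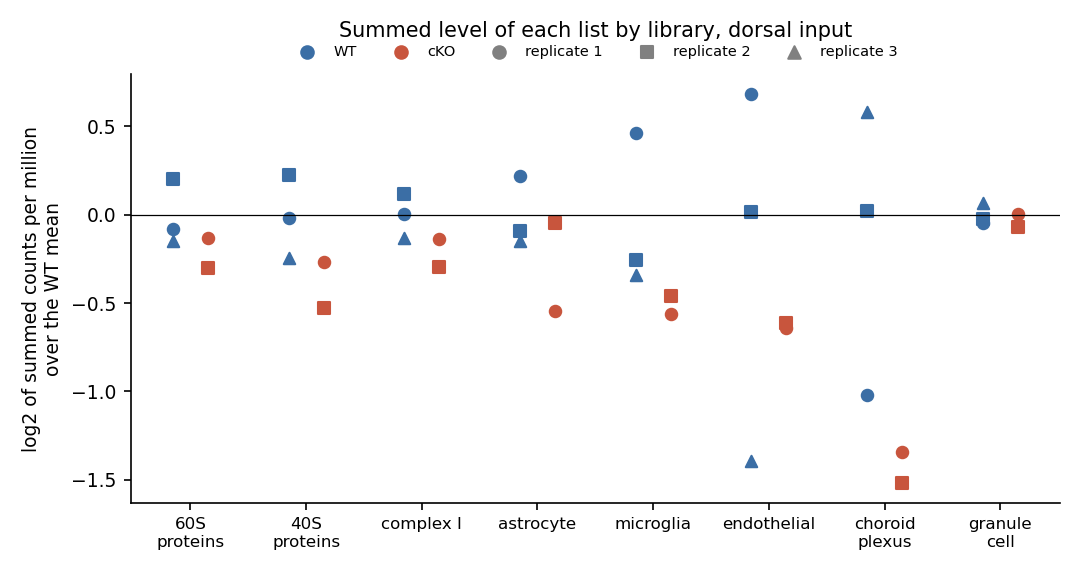
Summed CPM of the ribosomal protein, complex I and cell type marker lists in each dorsal input library, as log2 over the WT mean, with 1 point per pool. Granule cell markers lie close to 0 in all pools, and choroid plexus markers are higher in WT replicates 2 and 3 than in the other pools. Endothelial markers are spread over the WT pools, and cKO replicate 2 is the lowest pool for both ribosomal lists.

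Of 12 granule cell markers 3 were higher, *Pdzd2* among them, and 2 lower at an unadjusted p under 0.05 (5.23% and 7% of all genes). All cKO pools were above all WT pools in 6 of them and below in 2, beside 14% and 15.5% of all genes. *Nrgn*, neurogranin, a calmodulin-binding protein of dendrites, had 31977, 32876 and 43650 normalised reads in WT and 29687 and 20751 in cKO (log2 -0.52, edgeR FDR = 0.202, and -0.80 to -0.28 with 1 pool left out), and *C1ql2*, a secreted synaptic organiser of granule cells, had 1865, 1593 and 1792 in WT and 1366 and 1290 in cKO (log2 -0.40, edgeR FDR = 0.196). Neither overlapped between genotypes. Of 8 mossy cell markers 2 were lower (median -0.31, and -0.47 to -0.18 with 1 pool left out) with a summed level of 83.8 to 87.5 CPM in WT and 85.3 to 87.3 CPM in cKO. Markers of CA pyramidal cells (1 higher and 2 lower of 15) and interneurons (1 and 2 of 14) were split. Progenitor and immature neuron markers, which the Cre driver does not reach, were higher for 1 of 15, *Dcx*, the microtubule protein doublecortin, which had 858, 1867 and 1671 in WT and 2263 and 2142.1 in cKO (log2 0.59, edgeR FDR = 0.307, and 0.32 to 0.80 with 1 pool left out).

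Downstream of a Gs-coupled receptor, the cAMP pathway had more members higher than lower. Of 51 tested genes 8 were higher and 4 lower at an unadjusted p under 0.05 (5.23% and 7% of all genes, so the lower count was near the background). All cKO pools were above all WT pools in 13 of them and below in 5, beside 14% and 15.5% of all genes. The median was 0.05 with no call in edgeR, while DESeq2 called 1 lower (0.99% of its tested genes). *Pde1a*, a phosphodiesterase that degrades cyclic nucleotides under calcium and calmodulin, had 1235, 1522 and 1582 normalised reads in WT and 1810 and 2240 in cKO (log2 0.48, edgeR FDR = 0.178). *Akap13*, an anchor of protein kinase A, had 744, 614 and 726 in WT and 862 and 1022 in cKO (log2 0.44, edgeR FDR = 0.21). *Adcy8*, an adenylyl cyclase activated by calcium, had 62.7, 161 and 141 in WT and 55.6 and 61.4 in cKO (log2 -1.06, edgeR FDR = 0.234). WT replicate 1 was at the cKO level for *Adcy8*, as it was for *Ttr*.

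No gene of the ion channel and pump lists passed FDR 0.05 in edgeR. Of 78 potassium channel genes 4 were higher and 9 lower at an unadjusted p under 0.05, beside 5.23% and 7% of all genes. The Kv3 channels, which allow fast repolarisation, were split, with *Kcnc2* at 486, 622 and 649 normalised reads in WT and 825 and 918 in cKO (log2 0.57, edgeR FDR = 0.167) and *Kcnc4* at 2259, 1967 and 1972 in WT and 1626 and 1495 in cKO (log2 -0.40, edgeR FDR = 0.185). Of 15 genes of sodium channels and the sodium pump, 3 were lower and 0 higher, among them *Atp1b2*, the pump's beta subunit of astrocytes, at 8654, 7795 and 8757 in WT and 5811 and 6289 in cKO (log2 -0.47, edgeR FDR = 0.157). Of 43 genes of calcium channels, stores and pumps, 4 were higher and 2 lower at this p (median -0.02). *Atp2b4*, a calcium pump of the plasma membrane, differed by -0.55 (edgeR FDR = 0.174), and *Cacnb4*, a beta subunit of calcium channels, by 0.34 (edgeR FDR = 0.2).

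At synapses, 3 of 24 glutamate receptor genes were lower and 0 higher at an unadjusted p under 0.05 (7% and 5.23% of all genes), with a median of -0.09, and DESeq2 called none of them. The median was 0.011 without WT replicate 1, and without WT replicate 3, 6 were lower (8.4% of all genes in that fit). *Grm3*, a metabotropic receptor that astrocytes also express, had 823, 867 and 860 normalised reads in WT and 545 and 664 in cKO (log2 -0.49, edgeR FDR = 0.171), and *Grin1*, the obligatory subunit of NMDA receptors, had 2287, 2020 and 2248 in WT and 1732 and 1735 in cKO (log2 -0.34, edgeR FDR = 0.238). Of 14 GABA receptor genes 0 were higher or lower at this p, and DESeq2 called none. Of 36 synaptic vesicle proteins 5 were higher and 1 lower (median 0.01). *Snap25*, a SNARE protein of transmitter release, had 135719, 141884 and 179774 in WT and 191397 and 224687 in cKO (log2 0.45, edgeR FDR = 0.174). *Sv2b*, a vesicle glycoprotein, had 1211, 1376 and 2226 in WT and 2035 and 3808 in cKO and overlapped between genotypes (log2 0.86, edgeR FDR = 0.18). Its difference rested on cKO replicate 2, at 0.34 without that pool and 1.24 without cKO replicate 1.

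Of 25 tested neurotrophic factors and neuropeptides, 5 were lower and 2 higher at an unadjusted p under 0.05 (7% and 5.23% of all genes), and DESeq2 called 3 lower (0.99%). The median was -0.079, and -0.20 to -0.040 with 1 pool left out. Besides *Vgf*, these included *Npy*, neuropeptide Y of interneurons, with 364, 479 and 233 normalised reads in WT and 214 and 146 in cKO (log2 -0.98, edgeR FDR = 0.171), and *Pcsk1n*, an inhibitor of the convertase that cleaves such precursors, with 1273, 1044 and 1183 in WT and 799 and 680 in cKO (log2 -0.66, edgeR FDR = 0.124). *Penk*, the enkephalin precursor, was on the other side with 379, 400 and 532 in WT and 595 and 681 in cKO (log2 0.54, edgeR FDR = 0.198). Immediate early genes, which respond to neuronal activity, were split, with 2 of 24 higher and 3 lower. *Jun* had 4155, 4288 and 4380 in WT and 3400 and 3282 in cKO (log2 -0.36, edgeR FDR = 0.183), and *Ptgs2*, cyclooxygenase 2, overlapped between genotypes at 0.50 (edgeR FDR = 0.274). The difference of *Ptgs2* was 0.33 without cKO replicate 2 and 0.73 without WT replicate 1.

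In cell adhesion, 9 of 81 cadherins and protocadherins were lower and 0 higher at an unadjusted p under 0.05 (7% and 5.23% of all genes), with a median of -0.15. Without cKO replicate 1, 3 were lower (median -0.063, where 4.97% of all genes were lower), and without cKO replicate 2, 11 were (median -0.27, where 3.01% were). *Pcdh8*, a protocadherin that activity induces, had 783, 765 and 641 normalised reads in WT and 452 and 484 in cKO (log2 -0.64, edgeR FDR = 0.157). *Pcdhga8* had 148, 126 and 149 in WT and 72.6 and 77.0 in cKO (log2 -0.92, edgeR FDR = 0.158), a value that is uncertain because it shares its last exons with the rest of the gamma cluster. Both were separated between genotypes. Nectins, which join the membranes of neighbouring cells, differed in direction: *Pvrl1* (Nectin1) had 614, 415 and 548 in WT and 364 and 275 in cKO (log2 -0.72, edgeR FDR = 0.167), while *Pvrl3* (Nectin3) was higher, as given next.

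*Pvrl3*, *Sept6* and *Atf1* were chosen by the study on these same libraries because they differed in opposite directions in the 2 regions, so the values below describe that choice and are no independent evidence of it. In the dorsal inputs *Pvrl3* had 381, 432 and 530 normalised reads in WT and 674 and 698 in cKO (log2 0.61, edgeR FDR = 0.161), and in the ventral inputs 1906, 1676 and 1658 in WT and 1035 and 1284 in cKO (log2 -0.59, edgeR FDR = 0.0252). *Sept6*, a septin of the cytoskeleton, had 428, 544 and 562 in WT and 672 and 885 in cKO in the dorsal inputs (log2 0.60, edgeR FDR = 0.167) and differed by -0.46 in the ventral inputs (edgeR FDR = 0.0827). Its dorsal difference was 0.40 without dorsal cKO replicate 2 and 0.79 without dorsal cKO replicate 1. *Atf1*, a transcription factor of the CREB family that responds to cAMP, had 1210, 867 and 1115 in WT and 752 and 633 in cKO in the dorsal inputs (log2 -0.62, edgeR FDR = 0.161) and differed by 0.47 in the ventral inputs (edgeR FDR = 0.0749). None of the 3 passed in the dorsal inputs by edgeR, and all 3 did by DESeq2 (FDR = 0.0347, 0.0416 and 0.0283). The genotype by region term was 1.21 ± 0.21 (log2, SE) for *Pvrl3*, 1.07 ± 0.21 for *Sept6* and -1.08 ± 0.21 for *Atf1*, with edgeR FDRs of 0.0997, 0.0999 and 0.0999. Leaving out ventral cKO replicate 1 gave ventral differences of -0.44, -0.39 and 0.50 (edgeR FDR = 0.487, 0.607 and 0.409) and region terms of 1.08, 1.02 and -1.09 (edgeR FDR = 0.532 for each).

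**Figure D5:**
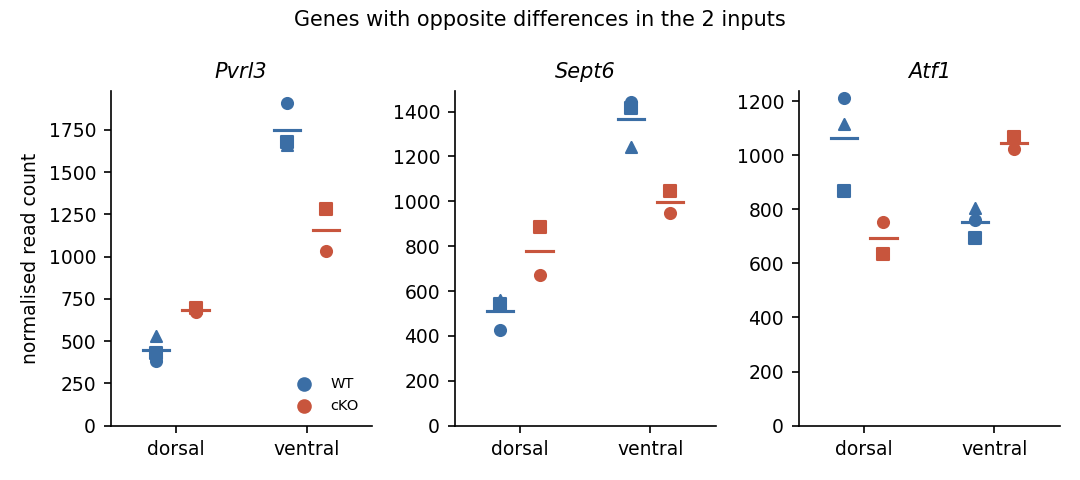
Normalised read counts of *Pvrl3*, *Sept6* and *Atf1* in the dorsal and ventral inputs, with 1 point per pool and the mean as a line (n = 3 WT and 2 cKO in each region, each region scaled separately). In each gene the cKO pools lie on opposite sides of the WT pools in the 2 regions, which is what the study chose these genes for.

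The same comparison was made in the ventral inputs. In the vDG inputs (3 WT and 2 cKO pools) 17 of 15786 tested genes rose (0.108%) and 368 fell (2.33%). Without ventral cKO replicate 1, the pool with no Y-linked counts, 2 rose (0.0122%) and 4 fell (0.0245%), and this fit assumes that the lone cKO pool varies like the WT pools. No gene passed FDR 0.05 for the genotype by region term by edgeR among 16306 tested, 12 passed 0.1 (0.0736%), 2010 had an unadjusted p under 0.05 (12.3%), and DESeq2 called 256. With that pool left out, 0 passed 0.1, 1224 had an unadjusted p under 0.05 (7.21%), and DESeq2 called 19. Leaving out 1 library gave 0 to 48 calls, the latter without dorsal cKO replicate 1, with 29 without dorsal WT replicate 3, 10 without ventral WT replicate 3, 4 without ventral cKO replicate 2 1 without dorsal WT replicate 1 and 0 without ventral cKO replicate 1. The difference between the regions in the number of calls was not tested.

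*Apoe* and *Mfge8* fell in the ventral inputs as well, by 0.81 and 0.94 on the log2 scale (edgeR FDR = 0.00409 and 0.00331), with region terms of -0.09 and -0.03 (edgeR FDR = 0.906 and 0.977). With ventral cKO replicate 1 left out, their differences were -0.94 and -1.08 and no longer passed (edgeR FDR = 0.0727 and 0.0648), and their region terms were 0.052 and 0.12 (edgeR FDR = 0.979 and 0.942). *Htr4* rose there by 0.86 (edgeR FDR = 0.00644), and differed by 0.82 without that pool (edgeR FDR = 0.162). *Pdzd2* differed by 0.55 (edgeR FDR = 0.0808), and *AK144265* and *Swi5* by -0.24 and -0.27 (edgeR FDR = 0.517 and 0.448), but their region terms did not pass (edgeR FDR = 0.536, 0.169 and 0.173). Without that pool the ventral differences were 0.86 for *Pdzd2*, -0.061 for *AK144265* and -0.59 for *Swi5*, and the region terms 0.13, -1.07 and -0.56 (edgeR FDR = 0.948, 0.532 and 0.686). Astrocyte markers had a median of -0.62 in the ventral inputs, where 10 of 18 fell (2.33% of all genes). Ribosomal proteins were on the other side of 0, with medians of 0.20 for the large and 0.21 for the small subunit and no calls by edgeR, as were complex I at 0.14 and complex IV at 0.25, and the classes of transcript length ran from 0.13 for the shortest to -0.10 for the longest (0.075 and -0.097 without ventral cKO replicate 1). Without ventral cKO replicate 1 these medians were -0.67 for the astrocyte markers, of which 1 fell (0.0245% of all genes), and 0.079, 0.080, 0.037 and 0.099 for the large subunit, the small subunit, complex I and complex IV. The region term passed for no member of these lists. The records do not state whether dorsal and ventral tissue came from the same mice.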

How the data were processed

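Input RNA of dorsal dentate gyrus was amplified (NuGEN Ovation V2), made into libraries with a kit that does not mark strand, and sequenced. Per the labels and methods, the authors trimmed the reads, aligned them to mm10 with STAR 2.4.2a, removed duplicates with SAMtools 0.1.19-444 and counted them on genes with HTSeq. The deposited values are raw counts, with no normalization. HTSeq's special rows (no feature, ambiguous, not unique) were dropped and made up 32.7 to 37.8% of all rows' counts per library. The authors also deposited comparison tables of fold changes and p-values from DESeq2 1.4.5, which were not used, apart from the percent GC per gene in them, a deposited annotation used for a GC trend.

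Groups were taken from the sample titles. Counts were filtered with filterByExpr, scaled by TMM and tested with edgeR 4.0.16 (quasi-likelihood F-test, two-sided, Benjamini-Hochberg over all genes tested, FDR under 0.05) in R 4.3.3, and DESeq2 1.42.0 was an alternative. A genotype by region term was fitted over the dorsal and ventral inputs. An exact permutation test over 3 and 2 pools cannot go below p = 0.2 and was not used. Normalised read counts are counts over the scaled library size times the mean scaled size. The scripts were tested on simulated data. Positions came from GENCODE M21 on GRCm38 (mm10), and lengths were known for 91.3% of tested genes and GC for 90.5%.

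The comparison, the gene lists and the tests were chosen with earlier results of these data known. Genes were named by a rule: *Htr4* and the serotonin receptors; in each direction the 12 with the lowest p among genes averaging 5 CPM or more whose genotypes did not overlap; in each list the 4 with the lowest p and, for markers, the 4 most abundant; *Pvrl3*, *Sept6* and *Atf1*; and dissection markers. Lists are described by counts and medians, with no test. Alternatives were other scaling, filters, dispersion, samples in the fit, length and GC trends, a replicate block, FDR 0.1 and leaving out each library. Leaving out both WT pools high in *Ttr*, and the ventral cKO pool with no Y-linked counts, was chosen after seeing the data. Some genes that the rule names are not reported here.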

Additional observations from a re-analysis of the deposited data

Results flagged for a closer look

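For 8 of the 119 named genes that were tested in both regions, the difference between genotypes ran in opposite directions in the dorsal and ventral inputs, with all cKO pools on one side of all WT pools in each region. The study chose 3 of them, *Pvrl3*, *Sept6* and *Atf1*, on these libraries for that pattern. Over all 15117 genes tested in both regions, 503 (3.33%) lay apart in this way, and 973 (6.44%) lay apart in the same direction in both. Many named genes were picked for a low dorsal p or for dorsal pools that lay apart. Their share can therefore not be compared with that of all genes. Leaving out ventral cKO replicate 1, which held no Y-linked counts, left 7 of the 8 genes apart (all but *Rps27*), and the counts over all genes were 777 of 15237 (5.1%) and 1726 (11.3%), with 1 ventral cKO pool to place against 3 WT pools. The genotype by region terms of the 8 (log2, dorsal minus ventral) were 1.21 for *Pvrl3*, 1.07 for *Sept6*, -1.08 for *Atf1*, -1.14 for *Rplp1*, -0.93 for *Rps27*, -0.94 for *Mrpl28*, 0.75 for *Kcnc2* and 0.72 for *Dock10*. *Mrpl28*, a mitochondrial ribosomal protein, had 299, 345 and 296 normalised reads in WT and 222 and 174 in cKO in the dorsal inputs (log2 -0.66) and differed by 0.30 in the ventral inputs, with and without ventral cKO replicate 1. *Dock10*, a guanine nucleotide exchange factor, had 5611, 5747 and 5956 in WT and 6436 and 8056 in cKO (log2 0.33, and 0.16 without cKO replicate 2 and 0.48 without cKO replicate 1) and differed by -0.38 in the ventral inputs (-0.34 without ventral cKO replicate 1). None of the 8 region terms passed FDR 0.05 by edgeR, and their FDRs were 0.0997, 0.0999, 0.0999, 0.144, 0.144, 0.171, 0.15 and 0.174. Without ventral cKO replicate 1 the terms were 1.08, 1.02, -1.09, -1.04, -0.80, -0.93, 0.67 and 0.70, with edgeR FDRs of 0.532 to 0.59. The summed level of the small subunit ribosomal proteins did the same, with a change of -23.1% in the dorsal and 17.2% in the ventral inputs (all 10 inputs scaled together), a difference that was not tested. The ventral change was 6.28% without ventral cKO replicate 1.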

How the results depend on the processing

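Counts of calls (1 higher, 4 lower) depended on the setting. They were 83 and 105 with DESeq2, 135 and 243 with no filter on low counts, 8 and 9 at FDR 0.1, 0 higher with all 10 inputs or all 15 libraries in one fit (0 lower in the latter), 0 higher with the length trend removed, 2 lower with the GC trend removed, and 453 and 658 without both WT libraries high in *Ttr*. Leaving out 1 library gave 0 to 67 higher and 0 to 63 lower. The log2 difference of *Htr4* passed FDR 0.05 with DESeq2 (0.76), no filter (0.75), without the WT pools high in *Ttr* (0.55), without WT replicate 1 (0.87) and without WT replicate 3 (0.65), and passed at the threshold of FDR 0.1 (0.75). It was 0.65 to 0.87 with 1 library left out. The astrocyte median was then -0.59 to -0.22. Of 119 genes named by the rule, the difference of 32 moved over 1.5 times with 1 pool left out. Named genes reversed for *Lct* (-0.071 without WT replicate 1, range to 0.17), *Slc1a2* (0.0011 without cKO replicate 1, range from -0.60) and *Htr2c* (0.19 without both WT libraries high in *Ttr*). The ventral inputs gave 385 calls, and 6 without cKO replicate 1, which had no Y-linked counts. For the region term, DESeq2 gave 256 calls and leaving out 1 library 0 to 48.

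Replicate numbers are shared by 2 pools of each genotype. Deviations of same-numbered pools from their group mean correlated at -0.0992 and -0.16 over 10383 genes. With 2 cKO pools these deviations mirror each other, so the correlations cannot show whether the numbers pair the pools. With a replicate block the calls were 62 and 75 (11 for the region term), and with the block and the length trend removed 293 and 200, where *Htr4* was 0.67 and passed. The deposited file names number the cKO pools otherwise than the titles used here. By those numbers the correlations were 0.16 and 0.0243, and that block was not run. Other scaling, robust dispersion, 10 counts in every library and removal of ribosomal RNA loci kept the counts within 1.5 times. The causes were not tested.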

Other observations

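Further lists held few members past an unadjusted p of 0.05, where 5.23% of all genes were higher and 7% lower. Of 50 tested RNA helicases, 3 were higher and 3 lower at this p (median 0.00), of 21 hnRNPs 0 and 1 (median -0.02), and of 36 kinesins and dyneins 3 and 2 (median 0.02). Replication-dependent histones were lower for 2 of 31 at this p, and 23 of 31 had a negative difference (median -0.18). The histone median was -0.39 without cKO replicate 1 and 0.0080 without cKO replicate 2, so its sign rested on 1 pool. None of their members passed FDR 0.05 by edgeR, and DESeq2 called 1 helicase lower (0.99% of its tested genes were lower). Thalamus and habenula markers overlapped between genotypes, at 64.8 to 91.6 CPM in WT and 82.5 to 92.6 CPM in cKO. *Prkcd*, a protein kinase C of thalamic neurons, had 346, 310 and 460 normalised reads in WT and 498 and 711 in cKO (log2 0.69, edgeR FDR = 0.174). It was 0.42 without cKO replicate 2 and 0.93 without cKO replicate 1, and DESeq2 called it (FDR = 0.0471).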
